A study of Mus musculus with 2 samples.

Results

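Superficial cortex TAL-α nuclei are nuclei of the thick ascending limb (TAL) that were sequenced from the outer strip of the mouse kidney cortex and that held no count of 4 genes by which other TAL nuclei were set aside. They were chosen by raw counts in single barcodes of the cortex library. A barcode was a member when it held at least 10 counts of Slc12a1, at least 5 of Enox1 and Thsd4 together, 0 of Tmem207 and Gpc5, 0 of Tmem52b, 0 of Nrxn3, at most 1 of Nos1 and Pappa2, at most 2 of Lrp2 and Cubn, and at most 5000 counts in all. This rule kept 1353 of the 5442 barcodes called as nuclei in the cortex library, and 1353 of 13563 in the whole series.

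The study compared TAL nuclei between kidney zones by single-nucleus RNA sequencing. Nuclei came from male B6 mice whose genotype is labelled WT and whose age is labelled 12 without a unit; per the study's methods they carried the NKCC2-Cre-INTACT alleles, so that tamoxifen switched on a fluorescent SUN1 protein at the nuclear envelope of cells that expressed Slc12a1. Nuclei were sorted for this fluorescence from 1 superficial cortex library and 1 library of the remaining tissue, labelled medulla, which includes deep cortex. Strain, sex and alleles were shared by both, and the number of animals behind a library is not given in the sources used here. With 1 library per zone and nuclei that are not replicates, no test was possible, and every interval below is a 95% interval that covers counting error only. The 2 libraries shared 0 barcode sequences.

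The TAL reabsorbs sodium chloride through the cotransporter NKCC2 (Slc12a1) without water, and its lumen-positive voltage drives calcium and magnesium between the cells. Claudin-10 makes the junctions permeable to sodium, whereas claudin-16 with claudin-19 makes them permeable to divalent cations, and the 2 kinds of junction lie between different TAL cells. The macula densa, a plaque of TAL cells beside the glomerulus, senses luminal salt and carries Nos1.

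The members were shallow but even. They had a median of 2401 counts (1544 to 3489 from the 5th to the 95th percentile, 3316620 in all) and 1450 genes. Slc12a1 was present in all of them by rule, with a median of 44 counts (22 to 72). Of the genes that admitted them, Enox1 had a median of 6 counts and was at 0 in 27 members, and Thsd4, a thrombospondin-repeat matrix protein, had a median of 8 and was at 0 in 12. The successive conditions left 5218 barcodes after Slc12a1, 4664 after Enox1 and Thsd4, 3581 after Tmem207 and Gpc5, 2589 after Tmem52b, 1949 after Nrxn3, 1524 after Nos1 and Pappa2, 1373 after Lrp2 and Cubn and 1353 after the limit on total counts. Counted apart from this order, 423 barcodes failed the condition on Nrxn3 alone, 408 that on Nos1 and Pappa2, 175 that on Tmem52b and 122 that on Tmem207 and Gpc5. Barcodes that met every other condition were then grouped by their summed counts of Enox1 and Thsd4. Prss12 was at 63.8 CPM (counts of a gene summed over a group of nuclei, per 1000000 counts of that group) in the 39 nuclei with 3 such counts, 13.1 in the 37 with 4, 87.1 in the 47 with 5 and 108 in the 56 with 6. All 4 intervals of Prss12 overlapped. In the same order, Chst8 was at 89.3, 91.5, 96.7 and 66.5 CPM and Lipg at 89.3, 170, 126 and 116. Cxcl12 was at 76.5, 39.2, 19.3 and 33.3 CPM and Pkdcc at 63.8, 52.3, 48.4 and 49.9.

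Members were set beside 1521 cortex barcodes with at least 2 counts of Tmem52b and at least 10 of Slc12a1, called Tmem52b nuclei below. That group had no limit on proximal tubule transcripts or depth. Its median was 2685 counts, 253 of its barcodes exceeded 5000, 246 held more than 2 counts of Lrp2 and Cubn, and its summed level over the 8 proximal tubule markers that the rule does not use was 4048 CPM against 339 in the members. The same group held to the members' limits on total counts, Lrp2 and Cubn, and Nos1 and Pappa2 comprised 1193 nuclei with a median of 2448 counts, and values against it are marked as within the limits. Both comparisons share the members' counts. Because the rule separates the groups by Tmem52b, and the markers were proposed from these data, the differences between them are descriptions.

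Of the 7 genes given as markers, 5 were not used by the rule, and all 5 were higher in members than in Tmem52b nuclei. Their levels were low, so that most single members held few of them. A total of 500 members held no count of the 5, 524 held counts of 1 of them, 249 of 2, 63 of 3, 17 of 4 and 0 of 5. Among Tmem52b nuclei 1225 of 1521 held none. After thinning each nucleus to 1000 counts, 61.6% of members and 92.8% of Tmem52b nuclei held none. The markers thus stood out in summed levels and not in each nucleus.

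Chst8, a sulfotransferase that acts on GalNAc of glycoprotein hormones (chromosome 7, 34373883 to 34512468 of GRCm39), was at 182 CPM in members (168 to 198, 605 counts) and at 19.6 CPM in Tmem52b nuclei, a ratio of 9.29 (7.55 to 11.5). The ratio was 12.2 (9.03 to 16.8) within the limits. It was the marker found in most members, 29.9% of them. Prss12, the secreted protease neurotrypsin (chromosome 3, 123240470 to 123300398), was at 85.0 CPM (75.4 to 95.6) against 9.55, a ratio of 8.91 (6.61 to 12.2) as given and of 11.4 within the limits. Lipg, endothelial lipase, was at 131 CPM (119 to 144) against 20.7, a ratio of 6.34 (5.14 to 7.86) as given and of 8.25 within the limits. Cxcl12, the chemokine that binds CXCR4 (chromosome 6, 117144945 to 117158328), was at 63.9 CPM (55.6 to 73.1) against 13.8, a ratio of 4.64 (3.55 to 6.12) that became 7.86 (5.18 to 12.4) within the limits. Pkdcc, a secreted tyrosine kinase of matrix proteins (chromosome 17, 83522216 to 83539749), had the smallest ratio of the 5, with 82.9 CPM (73.4 to 93.3) against 29.4 and a ratio of 2.82 (2.31 to 3.45). Intervals of members and Tmem52b nuclei did not overlap for any of the 5. With both groups restricted to 1500 to 3500 counts, the ratios were 21.05 for Chst8, 18.2 for Prss12, 14.5 for Cxcl12, 9.05 for Lipg and 2.73 for Pkdcc, so that 3 of them moved by over 1.5 times from the value as given. Of the rule's own genes, Thsd4 was at 3347 CPM in members and 684 in Tmem52b nuclei, but Enox1 was lower in members, at 3002 against 3734 CPM.

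A background was gauged in 48 cortex barcodes with at most 2 Slc12a1 counts and at least 10 of Lrp2 and Cubn, which had a median of 4015.5 counts. Lipg had 0 counts there, which allows up to 10.2 CPM, Prss12 and Pkdcc had 1 count each and Chst8 had 2. Cxcl12 was the highest of the 5 there. It had 12 counts (40.9 CPM) and was found in 16.7% of these barcodes (7.48% to 30.2%) against 12.3% of members, so that the share of members with Cxcl12 is not above the share in these deeper barcodes, which are nuclei with transcripts of their own. After thinning to 1000 counts the shares were 4.17% and 5.47%. In the free RNA of 375619 barcodes with at most 100 counts (2657920 counts in all), Chst8 was at 69.2 CPM, Lipg at 59.8, Pkdcc at 47.4, Cxcl12 at 36.9 and Prss12 at 30.9, for each marker below its level in members and above that in Tmem52b nuclei.

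**Figure D1:**
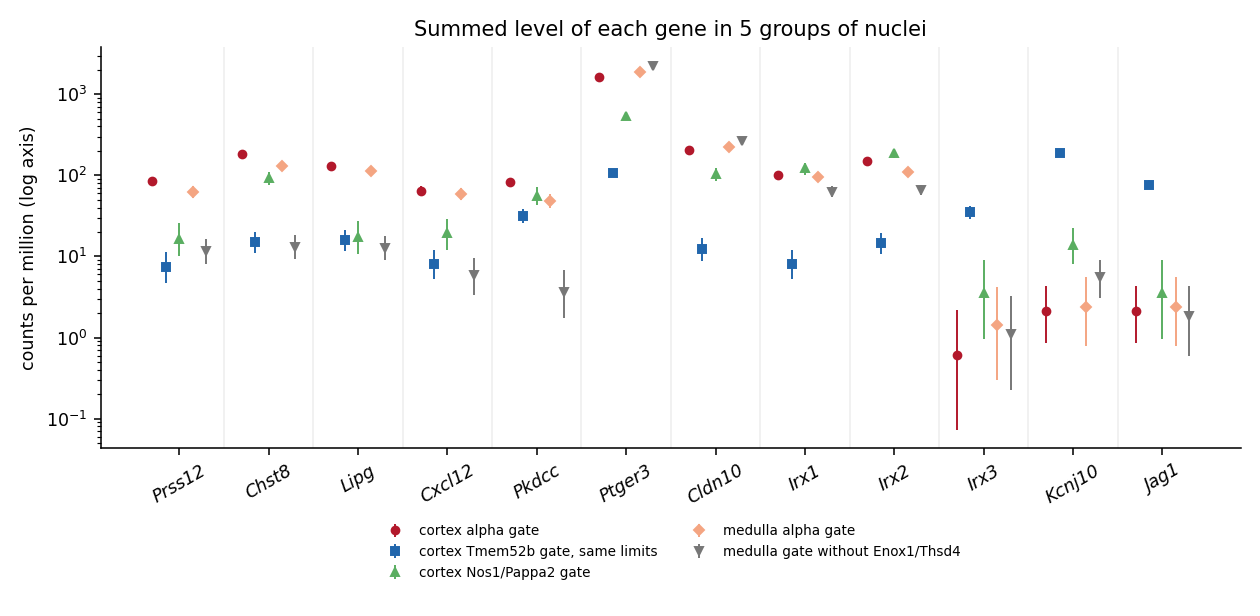
Levels in CPM (log axis) of 12 genes summed over the nuclei of 5 groups, with exact Poisson 95% intervals as bars. The 5 markers, Ptger3, Cldn10, Irx1 and Irx2 lie higher in cortex TAL-α nuclei (red circles) than in Tmem52b nuclei within the same limits (blue squares), and Irx3, Kcnj10 and Jag1 lie lower; in medulla nuclei without Enox1 and Thsd4 counts (grey) the 5 markers are low while Ptger3 and Cldn10 are not.

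Across all genes with at least 50 counts over both groups, 193 of 11126 were at least 2-fold higher in members than in Tmem52b nuclei (1.73%) and 915 were at least 2-fold lower (8.22%). Within the limits, 214 of 9959 were higher (2.15%) and 274 were lower (2.75%). The lower set as given included many proximal tubule transcripts. Slc13a1, a sulfate transporter of that segment, was at 6.93 CPM in members, 266 in Tmem52b nuclei as given and 15.6 within the limits. The 15 lowest genes as given were Npnt, Gem, Kcnj10, Irx3, Enpep, Tfec, Slc13a2, Slc13a1, Hnf4aos, Acnat1, Slc22a28, Slc6a18, Cyp2d26, Agxt2 and A1cf. All 8 proximal tubule markers tested were lower by 2-fold as given, and 0 of 8 within the limits.

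The largest ratio belonged to Eprn, a transcript at 76.6 CPM in members and 6.79 in Tmem52b nuclei, a ratio of 11.3 (7.96 to 16.4). Ptger3, the EP3 prostaglandin receptor that lowers cAMP, was the most abundant of the genes at this end. It was at 1609 CPM (1566 to 1653) against 167, a ratio of 9.65 (8.99 to 10.4), and was found in 83.0% of members and 14.8% of Tmem52b nuclei (64.4% and 6.77% after thinning to 1000 counts). Its ratio was 15.3 within the limits and 32.9 with both groups at 1500 to 3500 counts. Robo3, a guidance receptor, was at 243 CPM against 26.4. Zfpm2, a cofactor of GATA factors, was at 304 CPM against 46.4, and Cacnb2, a calcium channel subunit, at 483 against 82.2. Egfl6, Hmga2, Pla2g7, Trim16 and Snap91 made up the rest of the 15 genes with the highest ratios, between 6.06 and 6.63. Within the limits the ratio was 21.4 for Eprn, 18.2 for Snap91 and 10.97 for Pla2g7. Hmga2, a chromatin protein, was at 41.9 CPM in members.

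The Iroquois factors, homeodomain proteins that pattern nephron segments, divided between the groups. Irx1 was at 101 CPM in members (90.8 to 113) against 12.5, a ratio of 8.12 (6.24 to 10.7). Irx2 was at 149 CPM (136 to 162) against 23.3, a ratio of 6.38 (5.24 to 7.81). Within the limits these ratios were 12.5 and 10.2. Irx3 went the other way, with 2 counts in all members (0.603 CPM) and 29.4 CPM in Tmem52b nuclei. Within the limits Irx3 was 57.7-fold lower in members (15.6 to 483). The same directions held in the medulla library, where Irx1 was at 94.6 against 6.26 CPM, Irx2 at 109 against 13.1 and Irx3, which had under 50 counts over both medulla groups, at 1.43 against 26.2. Irx3 was also found in 14.6% of the proximal tubule barcodes. In the list of 34 segment transcription factors, 29 were tested within the limits, where 2.15% of all genes were higher and 2.75% lower, and Irx1 and Irx2 were higher and Irx3 and Tfap2a lower. The other 25, including Tfap2b and Esrrb, differed by less than 2-fold.

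Kcnj10, the basolateral potassium channel Kir4.1, was almost missing from members. Its 7 counts gave 2.11 CPM (0.849 to 4.35), against 138 CPM in Tmem52b nuclei and 189 within the limits, where it was 89.4-fold lower (43.1 to 223). Jag1, a Notch ligand, was at 2.11 CPM against 76.4 within the limits and was 36.2-fold lower (17.3 to 91.1). Itpr2, an endoplasmic calcium release channel, was at 19.3 against 549 CPM, and Foxq1, a forkhead factor, at 4.82 against 115. Zfp503, Lrmda, Pcdh19, Cracd, Scarf2, Aff3, Il1rap, Fgd3, Ntn1 and Cadps2 completed the 15 lowest genes within the limits. That ranking took only genes with at least 100 counts in the higher group. Gem and Npnt, with 1 count each in members, stood at 30.2 and 10.7 CPM in Tmem52b nuclei within the limits.

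Transport genes mostly differed by less than 2-fold. Of 25 transport genes tested within the limits, Kcnma1, the BK potassium channel, was at least 2-fold higher in members (452 CPM against 102, ratio 4.44) and Kcnj10 and Wnk1 were lower, while 22 differed less. Over all genes the shares were the 2.15% and 2.75% given above. Wnk1, a chloride-sensing kinase, was at 714 CPM against 2893, 4.05-fold lower (3.87 to 4.24). Wnk4, its relative, was at 696 against 386 CPM, and Stk39 (SPAK), the kinase that both activate, at 1154 against 744. Kcnj1, which encodes ROMK, was at 641 against 478 CPM. Slc9a3, the apical sodium-proton exchanger, was at 397 against 680 CPM.

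Junction genes showed the pair of claudins apart. Cldn10 was at 207 CPM in members (192 to 223) and at 118 in Tmem52b nuclei as given, but at 12.4 within the limits, so that the ratio was 1.75 as given and 16.7 within the limits (12.1 to 23.9). Cldn10 was at 422 CPM in the proximal tubule barcodes, and counts per gene do not tell its isoforms apart. Cldn16 was at 105 CPM (94.5 to 117) against 249 within the limits, 2.36-fold lower (2.08 to 2.69), and had 0 counts in the proximal tubule barcodes. Cldn19 was at 137 against 207 CPM. Cldn16 was thus lower but present, in 268 of 1353 members. Counts of both Cldn10 and Cldn16 were found in 107 members (7.91%, 6.53% to 9.48%), and the product of their separate shares was 7.36%. The product lay inside the interval of the joint share. Across the 20 junction genes, 17 were tested and only Cldn10 (higher) and Cldn16 (lower) differed by 2-fold within the limits, where 2.15% of all genes were higher and 2.75% lower.

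Receptors for calcium, parathyroid hormone and prostaglandin differed in size and direction. Casr, the calcium-sensing receptor, was at 898 CPM in members, found in 76.3% of them, against 1660 CPM within the limits. Pth1r, the parathyroid hormone receptor, was at 238 against 666 CPM, 2.80-fold lower (2.57 to 3.04). Calcr, the calcitonin receptor, was rare but higher in members, at 23.5 against 2.60 CPM, and Adrb1, the β1 adrenoceptor, was at 49.4 against 13.0. Gcgr, the glucagon receptor, was at 271 against 244 CPM. Among the receptor and cAMP genes reported here, Calcr, Ptger3, Adrb1 and Esr1 were higher by 2-fold within the limits and Pth1r was lower.

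Lists that the study itself drew from these samples are not independent evidence. Of its 8 α genes, all tested, 3 were at least 2-fold higher in members as given (Ptger3, Wnk4, Kcnma1) and 4 within the limits (Cldn10, Ptger3, Slco3a1, Kcnma1), with a median log2 ratio of 1.17 within the limits against 0.00065 over all genes. Of its 10 β genes, 9 were tested, 4 were lower as given and 5 within the limits (Cldn16, Pth1r, Cnnm2, Kcnj10, Wnk1), with a median of -1.24. The counts of list genes that follow stand beside 2.15% of all genes higher and 2.75% lower within the limits. Among 32 secreted and matrix genes, 27 were tested. Prss12, Lipg, Cxcl12, Pkdcc, Enpp2, Pcsk6, Bmp3 and Bmp6 were higher and Fgf9, Sema3c and Angpt1 lower. Of these, Prss12, Lipg, Cxcl12 and Pkdcc are given markers proposed from these data, as is Chst8 below, and are not independent evidence. Fgf9 was at 84.4 against 294 CPM. Bmp6, a bone morphogenetic protein, turned direction with the limits: it was at 35.6 CPM in members, 76.2 in Tmem52b nuclei as given, 13.0 within the limits and 327 in the proximal tubule barcodes. Of 13 sulfation genes tested, Chst8 and Gpc3, a glypican (170 CPM, ratio 4.36), were higher and 0 were lower. Mitochondrial energy genes (21 tested) and early response genes (3 tested) held 0 of either kind within the limits. Of markers of other cells, 5 of 7 for the distal convoluted tubule, 2 of 2 for the collecting duct and 3 of 4 for endothelium and other cells were lower in members, and of 3 for the macula densa Robo2 and Bmp3 were higher.

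The same rule applied to the medulla library found 790 nuclei with a median of 2661.5 counts, and 571 Tmem52b nuclei. There, 167 of 8140 genes were at least 2-fold higher (2.05%) and 214 lower (2.63%). All 5 markers were again higher, Chst8 at 131 against 2.85 CPM and Prss12 at 62.1 against 3.42. Of 8137 genes tested in both libraries, with the Tmem52b nuclei as given, 138 were higher in cortex, 167 in medulla and 90 in both, which is 65.2% of the cortex set and 53.9% of the medulla set. For lower genes the numbers were 309, 214 and 171, or 55.3% and 79.9%. The medulla Tmem52b nuclei also had no limit on proximal tubule transcripts or depth. Their 8 proximal tubule markers not used by the rule summed to 865 CPM, against 113 in the 790 nuclei. In medulla, 6 of 6 proximal tubule markers tested were lower, as were 3 of 5 for the distal convoluted tubule. Their part in the shared lower set was not tested. Directions were opposite for 4 genes of the higher and 14 of the lower cortex set.

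**Figure D2:**
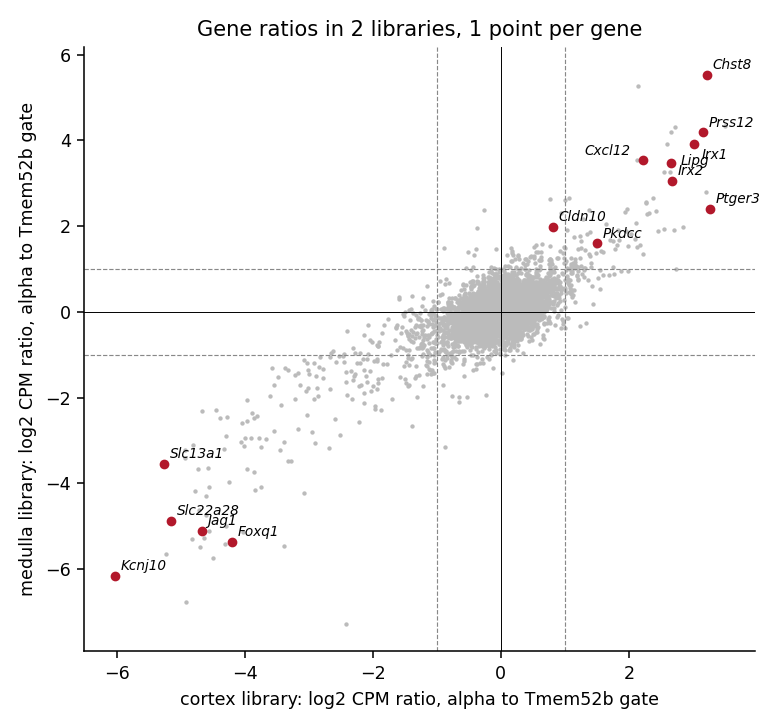
Each point is a gene tested in both libraries, with the log2 CPM ratio of TAL-α to Tmem52b nuclei in cortex (x axis) and in medulla (y axis); dashed lines mark 2-fold, a count of 0 was set to 3, and cortex Tmem52b nuclei are as given. The markers and Irx1 and Irx2 lie at the upper right, Kcnj10, Jag1 and Foxq1 at the lower left, and Cldn10 short of 2-fold in cortex.

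Between the 2 libraries, nuclei that met the full rule were close. Of 9245 genes, 149 were at least 2-fold higher in the cortex members (1.61%) and 28 in the medulla nuclei (0.303%). All markers stayed under 2-fold, Chst8 at 182 against 131 CPM and Lipg at 131 against 113. Pde10a, a phosphodiesterase, was 2.03 times higher in cortex (1.89 to 2.19, 868 against 427 CPM), and Robo2, a Slit receptor, 3.03 times (2.68 to 3.43, 459 against 151 CPM, or 306 CPM without the 52 cluster 3 members described below). Ranbp3l was lower in cortex, at 185 against 401 CPM, as were Pcsk6 (175 against 354) and Bmp5 (15.1 against 74.5). Library and zone cannot be told apart here. The cortex members also held more transcripts of other cell types, with summed levels of 339 against 113 CPM for the 8 proximal tubule markers not used by the rule (Acsm2 the most abundant in cortex, none at 0) and of 103 against 40.1 CPM for 15 endothelial, stromal, immune and podocyte markers (Flt1 the most abundant). Their part in the difference was not tested.

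Enox1 and Thsd4, the genes that admit a nucleus, are in the study's list of cortex genes, which was also drawn from these samples. Nuclei that met every other condition with 0 counts of both were rare in cortex (31) and common in medulla (1222). In the medulla library, 391 of 8640 genes were at least 2-fold higher in the 790 nuclei that met the rule (4.53%) and 196 lower (2.27%). The 5 markers separated these groups as well, Pkdcc at 48.2 against 3.67 CPM, Cxcl12 at 59.2 against 5.87 and Chst8 at 131 against 13.2. Ptger3 and Cldn10 did not, at 1882 against 2198 CPM and 221 against 262. Sfrp1, a secreted Wnt inhibitor, was at 407 against 6.96 CPM and Car15, a carbonic anhydrase, at 326 against 6.60. Of the 11 cortex genes of the study not used by the rule, 11 were higher, and of its 13 medulla genes 10 were lower, Ranbp3l at 401 against 4719 CPM and Enpp2, the lysophosphatidic acid enzyme autotaxin, at 181 against 719. In the cortex library 752 of 7900 genes were higher (9.52%) and 1291 lower (16.3%), but the lower number is not a measurement of expression throughout: 502 of the 1291 had 0 counts among the 61645 of the 31 nuclei and were lower only because 0 was set to 3 counts, which is 48.7 CPM there. The other 789 had at least 1 count in those nuclei. Genes at 0 there were ranked at 3 counts and genes with 1 or 2 at their own, so that the order at the high end rests on single counts. The 8 highest ratios were of Sfrp1, Slc25a30, Sh3bp5, Chst8, Mrtfb, Airn, Car12 and Atp6v1b1, and the 8 lowest of Ranbp3l, Bckdhb, Slc5a3, Cacnb4, Abca13, Chd9, P3h2 and Dnm3. Ranbp3l had 199 counts in them (3228 CPM, against 185 in members) and Chst8 had 1.

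The members were not uniform. The clusters that the authors' software deposited with the library placed 906 members (67.0%) in cluster 1, 175 (12.9%) in cluster 5, 152 (11.2%) in cluster 8 and 52 (3.84%) in cluster 3, and the other 68 in 7 smaller groups of 1 to 27. Of the 1521 Tmem52b nuclei, clusters 1, 5, 8 and 3 held 5, 2, 3 and 3. Because clusters were built on these genes, the levels that follow are descriptions.

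Cluster 1 carried the markers at or above their level over all members, with Lipg at 163 CPM, Chst8 at 213, Prss12 at 95.4 and Pkdcc at 98.1. Pde10a was at 1036 CPM and Sh3bp5, an adaptor that binds JNK and Btk, at 372, against 490 and 112 in all other members. Egf, the precursor of epidermal growth factor made by the TAL and distal tubule, was at 14905 CPM.

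Cluster 5 leaned to the genes of the medulla list. Slc5a3, the myo-inositol transporter of osmotic adaptation, was at 1803 CPM against 970 in the other members, Pcsk6, a proprotein convertase, at 429 against 139, and Ranbp3l at 338 against 162. Pde10a was at 134 CPM against 974 in the others, and Enox1 was at 1692 CPM and Thsd4 at 2217, the lowest of the 4 clusters. The markers were lower than in cluster 1 but present, with Chst8 at 88.7 CPM, Lipg at 105 and Cxcl12 at 24.0. Ptger3 was level, at 1784 CPM in cluster 5 and 1782 in cluster 1.

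Cluster 8 was low in Lipg but not in Cxcl12. Lipg was at 12.1 CPM against 145 in the other members, whereas Cxcl12 was at 118 CPM and Prss12 at 115. Robo2 was at 1505 CPM against 343, Slit3, a ligand of Robo receptors, at 188 against 43.5 and Tshr, the thyrotropin receptor, at 164 against 41.2. Pcsk6 was at 12.1 against 194 CPM, Cacnb4, a calcium channel subunit, at 337 against 1643, and Ptger3 at 798. Umod, which encodes uromodulin, was at 3113 CPM and Egf at 11375.

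Cluster 3 went against the label. It was also the cluster of 394 of the 458 cortex barcodes with at least 5 counts of Nos1 and Pappa2 and at least 10 of Slc12a1. Its 52 members had passed with at most 1 such count, and 34 of them held a Nos1 count, against 21 of 152 in cluster 8 and 11 of 906 in cluster 1. Prss12, Lipg, Cxcl12 and Pkdcc had 0 counts in these 52 nuclei, which allows up to 35.5 CPM each, and Chst8 was at 59.2 CPM. Egf was at 189 CPM against 14245 in the other members and Umod at 201 against 4785, while Cacnb4 and Slc9a3 had 0 counts. Robo2 was at 6294 CPM against 306, Ndst4, a heparan sulfate enzyme, at 1112 against 22.3, and Tshr at 899 against 31.2. Robo2 was at 5131 CPM, Egf at 2101 and Umod at 602 in the 458 Nos1 and Pappa2 barcodes. The 8 macula densa markers summed to 7596 CPM in cluster 3 (7020 to 8207, Robo2 the most abundant, Oxtr at 0), 1912 in cluster 8, 292 in cluster 1 and 113 in cluster 5. These 8 include Nos1 and Pappa2, which the rule limits and which gave 34 and 5 of the 642 counts in cluster 3. Over all members, 544 of 8998 genes were at least 2-fold higher than in the 458 barcodes (6.05%) and 679 lower (7.55%). Those barcodes had no limit on depth, Lrp2 or Cubn: 34 exceeded 5000 counts, and their 8 proximal tubule markers not used by the rule summed to 2137 CPM against 339 in members, all 8 among the lower genes. Prss12, Lipg and Cxcl12 were among the higher genes, at 16.6, 17.5 and 19.2 CPM in those barcodes, whereas Chst8 (182 against 91.7 CPM) and Pkdcc (82.9 against 55.9) stayed under 2-fold. Leaving these 52 nuclei out changed the numbers of higher and lower genes against Tmem52b nuclei from 193 and 915 to 191 and 943.

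**Figure D3:**
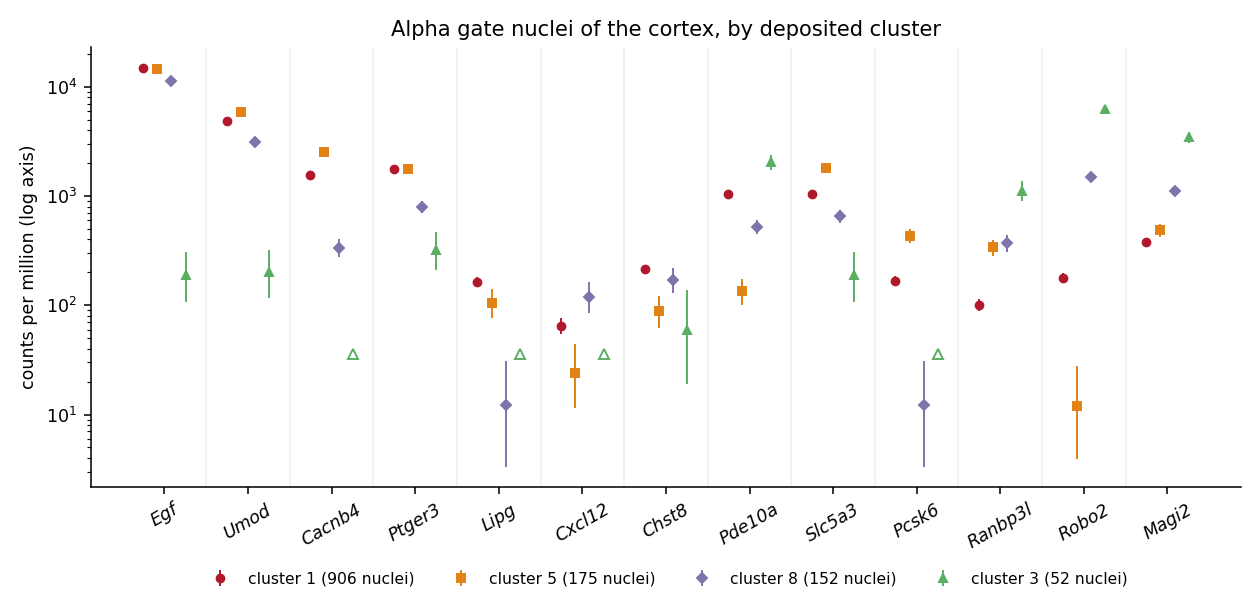
Levels in CPM (log axis, Poisson 95% intervals) of 13 genes in the members by deposited cluster; open symbols mark genes with 0 counts, drawn at the level that 3 counts give. Cluster 3 (green triangles) lies far below the others for Egf and Umod and above them for Robo2 and Magi2, cluster 8 (purple) is low for Lipg and Pcsk6, and cluster 5 (orange) is low for Pde10a and Robo2.

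Most counts of Slc12a3, Flt1 and Emcn sat in few members. Slc12a3, the cotransporter of the distal convoluted tubule, had 175 counts over all members, of which 161 were in the 3 members of cluster 12. Flt1, an endothelial receptor, had 103 counts, of which 68 were in the 24 members of cluster 9, and Emcn 43 of 63 counts there. Slc34a1, a proximal tubule phosphate transporter, was spread more widely, with 121 of 287 counts in cluster 1, 71 in the 4 members of cluster 7 and 34 in the 27 members of cluster 11, whose median mitochondrial share was 0.700% against 0.0811% in cluster 1. No caller of doublets was applied.

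Spread between members was measured at equal depth, by thinning each nucleus to 1000 counts and dividing a gene's variance by its mean, which is about 1 for counting noise alone. Of 3913 genes with a mean of at least 0.05, 70 reached 1.5, which is 1.79%, and the median was 1.06. Robo2 (4.43) and Egf (4.18) were far above the rest, and stood at 2.91 and 3.64 without the 52 members of cluster 3. Robo2 was found in 27.1% of members with up to 12 thinned counts in a nucleus, and Egf in 96.2% with up to 42. Magi2 (2.68), a junction scaffold, Tenm2 (2.48), an adhesion protein, Pde10a (2.43), Tshr (2.28) and Ndst4 (2.28) followed, then Abca13, Gpx3, Dnajc12, Malat1, Col5a2, Rbfox1, Kap and Cacnb4, from 2.23 to 1.99. Without cluster 3, Ndst4 was at 1.64, Magi2 at 2.35 and Tshr at 2.51, and 51 genes reached 1.5. In the 788 medulla nuclei of the same rule with at least 1000 counts, Robo2 reached 3.83, Egf 3.95 and Pde10a 2.64, and 54 of 3799 genes reached 1.5. Gpx3, a secreted peroxidase of the proximal tubule, was less spread there, at 1.33.

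**Figure D4:**
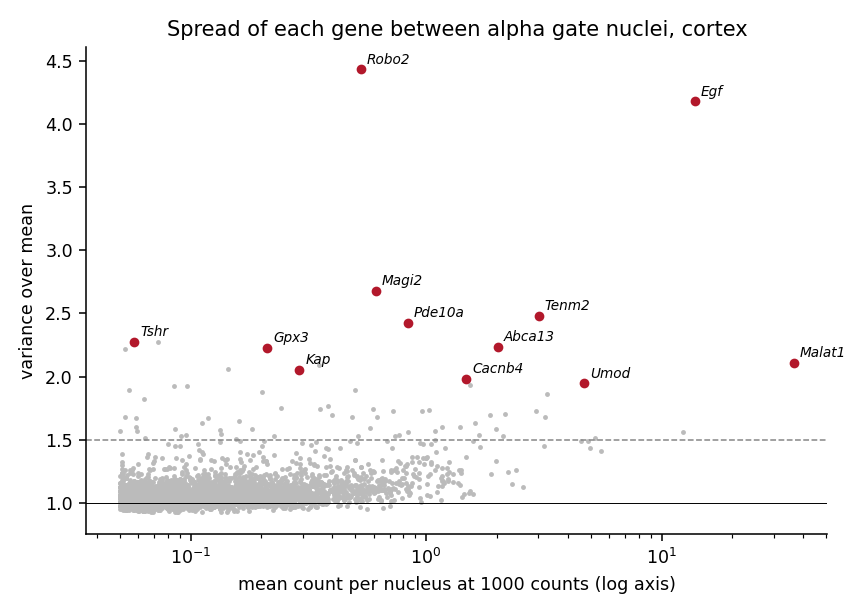
Variance over mean of each gene between the 1353 members after thinning to 1000 counts (y axis) against its mean (log x axis); the solid line marks 1 and the dashed line 1.5. Robo2 and Egf stand above 4 and most genes lie near 1.06.

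The first principal component of the thinned counts took 1.06% of the variance and ran from Egf, Umod, Abca13 and Cacnb4 at one end to Robo2, Tenm2 and Magi2 at the other. Its median was -6.11 in cluster 3, -1.86 in cluster 8, 0.49 in cluster 1 and 1.24 in cluster 5. Across the 1353 members, which share a library, its correlation with total counts before thinning was 0.276, given as a description. The second component took 0.395% and set Fxyd2, Egf, Pde10a and Tenm2 against Cacnb4, Slc5a3, Bckdhb and Pde4d, with medians of -1.24 in cluster 5, -1.22 in cluster 3, 0.31 in cluster 8 and 0.34 in cluster 1. Pairs of genes were counted over all members, unthinned. Prss12 and Chst8 were found together in 5.62% of members (4.45% to 6.98%), against a product of 4.66%, Lipg and Cxcl12 in 2.73% against 2.47%, Cxcl12 and Pkdcc in 2.44% against 2.06%, and Pth1r and Casr in 31.5% against 30.3%. For each pair the product lay below the joint share and inside its interval.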

How the data were processed

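Nuclei sorted by FANS from superficial cortex and remaining tissue (medulla) were measured by PIPseq single-nucleus RNA sequencing. The authors aligned reads to GRCm39 with PIPseeker and deposited raw counts, as whole numbers for each gene in each barcode, from before their removal of doublets and ambient RNA in Seurat 4.4.0. The deposited filtered matrices (32227 genes) were used for all levels, the raw cortex matrix for uncalled barcodes, and the deposited cluster numbers as a partition; UMAP coordinates were not used.

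Counts were summed over groups of nuclei and scaled to CPM with exact Poisson intervals. Ratios carry conditional binomial and shares Clopper-Pearson intervals, all at 95%, and a count of 0 was set to 3. Genes used by either rule were left out of counts of genes. Genes needed 50 counts over both groups and a ratio of at least 2. No p-value was computed, because nuclei are not replicates. No doublet caller or ambient correction was run. Nuclei were thinned to 1000 counts for spread; shares of nuclei with a count are unthinned except where thinning is named.

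The members and lists were chosen with earlier results of these data known. Named genes are the given markers, genes of 17 fixed lists, the 15 highest and 15 lowest ratios to Tmem52b nuclei (at least 100 counts in the higher group), the 8 at each end against nuclei without Enox1 and Thsd4 counts, and the 15 most spread genes. Rankings within the limits, between libraries and by deposited cluster were added after seeing the data. Coordinates are from GENCODE M39 on GRCm39. Both steps were tested on simulated data. Python 3.11.15, numpy 2.4.6, scipy 1.17.1 and pandas 2.3.3 were used. Some genes of the lists are not reported here.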

Additional observations from a re-analysis of the deposited data

Results flagged for a closer look

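Among the uncalled barcodes of the cortex library, which enter no comparison, 80 met every condition of the rule. They held 391 to 1262 counts (median 954.5), all below 1268, the lowest total of a called barcode. Their gene levels were not analysed here.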

How the results depend on the processing

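Under the alternatives, the 193 higher and 915 lower genes against Tmem52b nuclei became 214 and 274 with that group held to the members' limits. They became 222 and 246 at 1500 to 3500 counts in both, and 138 and 342 after thinning. Without barcodes holding any count of Slc12a3, Aqp2, Flt1, Pdgfrb or Slc34a1, genes of other cell types, they were 205 and 214. They became 344 and 1353 at 20 counts, 102 and 445 at 200, and 648 and 1555 at a fold of 1.5. With the 50-count filter replaced by more than 3 counts in either group, they were 915 and 2391. Against nuclei without Enox1 and Thsd4 counts, the 752 higher and 1291 lower genes became 516 and 722 after thinning. They became 752 and 3449 at 20 counts, 421 and 146 at 200, and 1510 and 2402 at a fold of 1.5. With more than 3 counts in either group as the only filter, they were 752 and 8116. The 70 genes of high spread became 143 at 1500 thinned counts. The lower numbers against the 31 nuclei include genes with 0 counts there, set to 3 (502 of the 1291). Those numbers follow the filter by construction and are not a measure of lower expression. Against Tmem52b nuclei, 11126 genes were tested as given and at a fold of 1.5, and 9959 with the members' limits. What changed the numbers there was not tested. The limits on genes and mitochondrial counts removed no barcode, and the other scaling multiplied every ratio by 1 common factor. With that scaling, 959 genes were higher and 1012 lower against nuclei without Enox1 and Thsd4 counts. Over the 184 values from the other alternatives for 23 markers and study-named genes, 116 stayed within the interval of the ratio as given, 67 moved outside it, and 1 reversed: Avpr2, from 1.51 to 0.971 after thinning. Cldn14, whose interval as given included 1, went from 1.55 to 0.902 at 1500 to 3500 counts and 0.964 after thinning. It went to 0.696 without barcodes holding counts of Slc12a3, Aqp2, Flt1, Pdgfrb or Slc34a1. No other ratio of the 23 crossed 1. Leaving out the 52 members of cluster 3, an alternative chosen after seeing the data, moved none of the 23 outside its interval, and left 51 genes of high spread. No paired analysis was possible because each zone has 1 library. Most members held 0 or 1 of the 5 markers at a median of 2401 counts, and the part of depth in this was not tested.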
